A study of Mus musculus with 9 samples.

Results

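The miR-183 cluster encodes miR-183, miR-96 and miR-182 from neighbouring hairpins, and all miRNAs whose names begin with miR-182-, miR-183- or miR-96- were followed here in mouse epididymosomes, the small vesicles that the epididymal epithelium releases into the lumen. This rule found 4 of the 358 miRNAs measured, namely miR-182-5p, miR-183-5p, miR-96-5p and miR-183-3p. Epididymosomes had been purified on density gradients from the luminal fluid of the caput, corpus and cauda of untreated male Swiss mice aged 8 weeks, the segments being passed by spermatozoa in that order. Each segment was represented by 3 small RNA libraries, and RNA from several animals was pooled for each library, so that the spread between replicates is that between pools and not between single mice. All groups shared strain, sex and age, and segment was the only difference between groups that the sample labels name. Levels are given as CPM, a miRNA's reads per 1000000 miRNA reads of its library. At this scale a miRNA also falls when others rise, and vesicle number and miRNA per vesicle cannot be told apart.

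A miRNA hairpin is cut from a longer primary transcript and yields a 5p and a 3p mature strand, of which one usually loads into Argonaute and guides it to target transcripts through the seed, bases 2 to 8. The miR-183 cluster is expressed from a single primary transcript and is best known from sensory organs, where it is abundant in hair cells and photoreceptors. Changes in the miR-96 seed cause progressive hearing loss. miR-182 is also known as a repressor of the transcription factor Foxo1 in activated lymphocytes.

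The mature sequences of all 4 miRNAs were taken from RefSeq (GRCm38.p6) and are shown because the seed decides which targets each may pair with. They are written 5′ to 3′ with the seed in capitals.

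miR-182-5p: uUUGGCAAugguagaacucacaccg

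miR-96-5p: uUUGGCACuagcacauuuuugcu

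miR-183-5p: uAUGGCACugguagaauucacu

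miR-183-3p: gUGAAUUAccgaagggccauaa

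No pair among them shares the whole seed. miR-182-5p and miR-96-5p have the same bases 2 to 7 and differ within the seed by the substitution A8C, with miR-182-5p as the reference and positions counted from 1 at the 5′ end. Over their whole length these 2 miRNAs diverge, and only 12 of 23 aligned positions are identical. miR-183-5p is closer to miR-182-5p over its length, with 18 of 22 positions identical, but carries the substitutions U2A and A8C in its seed, so that it does not belong to the same seed family. The remaining differences between miR-182-5p and miR-183-5p are C17U and A22U. Among the measured miRNAs with a RefSeq mature sequence (299 of 358), no miRNA outside the cluster had bases 2 to 7 in common with any of the 4.

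The hairpins lie on the minus strand of chromosome 6. In the order of transcription, Mir183 spans chr6:30169668-30169737, Mir96 spans chr6:30169446-30169551 and Mir182 spans chr6:30165918-30165992. Mir183 and Mir96 are separated by 116 bases and Mir96 and Mir182 by 3453 bases, and the whole cluster occupies 3820 bases. RefSeq places all 3 hairpins within the long non-coding RNA gene Mirc35hg, at chr6:30158640-30174125, of which the first hairpin lies 4388 bases downstream of the annotated start. In GENCODE M21 the hairpins are intergenic, between the protein-coding genes Nrf1 and Ube2h. The non-coding RNA gene Rncr4, on the opposite strand, overlaps the annotated start of Mirc35hg and reaches 1232 bases into it. The hairpins are shown with the mature strands that were measured in capitals, which locates both strands of miR-183 on the arms of 1 precursor.

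Mir183: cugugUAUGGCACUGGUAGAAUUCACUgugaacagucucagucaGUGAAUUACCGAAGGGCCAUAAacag

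Mir96: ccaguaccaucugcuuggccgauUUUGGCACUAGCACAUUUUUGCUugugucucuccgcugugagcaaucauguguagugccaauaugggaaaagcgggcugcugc

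Mir182: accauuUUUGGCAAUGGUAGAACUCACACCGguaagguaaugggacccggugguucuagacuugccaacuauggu

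**Figure D1:**
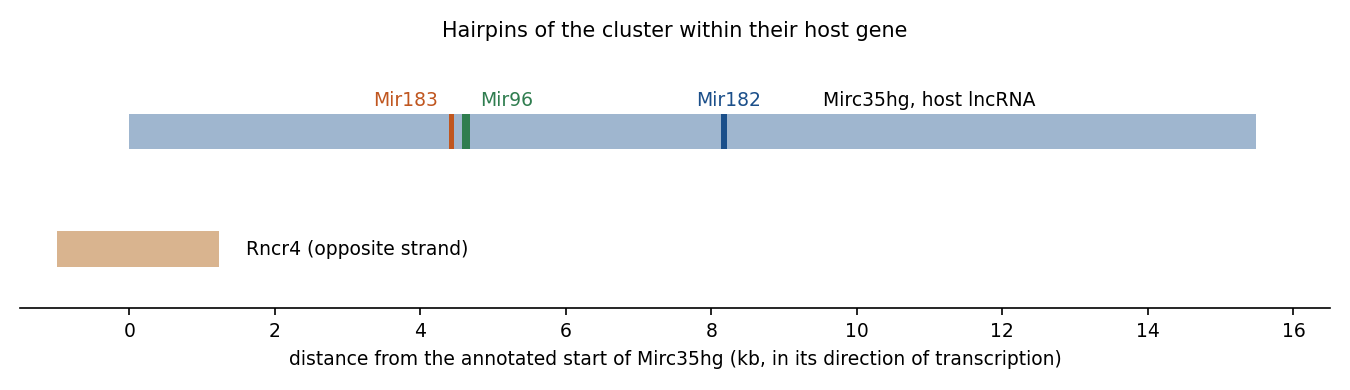
Map of the cluster within its host gene Mirc35hg, with the distance in kb from the annotated start of Mirc35hg, along its direction of transcription, to scale on the x axis. The pale bar is the host gene, the coloured bars are the hairpins, which begin 4388 (Mir183), 4574 (Mir96) and 8133 bases (Mir182) from the start, and the brown bar is Rncr4 on the opposite strand.

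The promoter window of Mirc35hg, from 250 bases before to 50 bases after the annotated start (RefSeq GRCm38.p6, chr6:30174076-30174375, minus strand), is shown because the hairpins are annotated within this transcript. Capitals mark matches, on either strand, to GGGCGG (the GC box), CCAAT and CACCTG (an E-box).

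Mirc35hg promoter: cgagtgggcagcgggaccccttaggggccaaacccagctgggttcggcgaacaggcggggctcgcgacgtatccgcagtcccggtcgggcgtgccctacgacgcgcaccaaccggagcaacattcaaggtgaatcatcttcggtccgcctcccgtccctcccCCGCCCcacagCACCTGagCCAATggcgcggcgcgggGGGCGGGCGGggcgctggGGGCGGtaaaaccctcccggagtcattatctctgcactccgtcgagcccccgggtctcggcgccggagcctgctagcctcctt

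This window has a GC content of 70.3%, against a median of 52.7% over 32851 mouse promoter windows of the same length. It holds 4 matches to GGGCGG, of which 2 adjoin and overlap, and at least 1 match to this motif was found in 35.7% of all windows. A single CCAAT lies at position -69 and a single CACCTG at position -77 relative to the start, motifs found in 37.4% and 20.2% of windows, and TATAAA, present in 13.6% of windows, was not matched. Such matches describe the letters of the window only.

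Reads counted on miRNAs ranged from 1548581 to 11306605 per library, the caput libraries being the deepest. The most abundant 3 miRNAs of the series, miR-10b-5p, miR-10a-5p and miR-143-3p, took 59.3% to 76.3% of the reads of a library. Caput replicate 2 stood apart by this measure, with the highest share and with a TMM factor (a scaling to the bulk of the miRNAs) of 0.478 where those of the other libraries were between 0.753 and 1.29. The values of each member are therefore also given under other scalings wherever these changed a result.

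By reads, miR-182-5p was the most abundant of the 4 cluster miRNAs. It accounted for 80.0% to 88.2% of the cluster's reads in every library, followed by miR-183-5p with 10.1% to 16.4% and miR-96-5p with 0.722% to 3.73%. miR-183-3p, the opposite strand of the miR-183 precursor, contributed 0.0885% to 0.242%. By mean level among the 358 miRNAs, miR-182-5p ranked 10 in caput, 16 in corpus and 22 in cauda epididymosomes. Corresponding ranks were 32, 47 and 71 for miR-183-5p, 106, 126 and 133 for miR-96-5p, and 241, 265 and 329 for miR-183-3p, so that all 4 stood lower in the cauda ranking than in the caput ranking.

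The cluster as a whole made up a smaller share of epididymosome miRNA at each step along the tract. Together the 4 miRNAs took 1.21% to 1.92% of the reads of caput libraries, 0.786% to 0.827% in the corpus and 0.456% to 0.486% in the cauda, without overlap between segments. This sum follows miR-182-5p, its largest part.

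miR-182-5p had 12437, 10055 and 16734 CPM in caput replicates 1, 2 and 3. Corpus libraries had 6450, 7037 and 6820 CPM, and cauda libraries 3645, 3790 and 4165 CPM. Every corpus library was below every caput library and above every cauda library. The caput pools were the most variable, with a mean of 13075 ± 3385 CPM (SD, n = 3). The corpus mean was 6769 ± 296 CPM (SD, n = 3) and the cauda mean 3867 ± 268 CPM (SD, n = 3). At least 7294 reads stood behind each value, so that counting error was small beside this spread.

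miR-183-5p, the guide strand of the first hairpin, was less abundant but ordered in the same way. Its level was 1417, 1992 and 2268 CPM in caput, 1294, 1117 and 955 CPM in corpus, and 731, 727 and 596 CPM in cauda libraries. The segments again did not overlap, although the lowest caput and the highest corpus library, both replicate 1, lay close together. Means were 1892 ± 434 CPM (SD, n = 3), 1122 ± 170 CPM (SD, n = 3) and 685 ± 76.6 CPM (SD, n = 3) from caput to cauda.

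miR-96-5p, which carries the seed nearest to that of miR-182-5p, did not follow this order. It was measured at 229, 90.8 and 138 CPM in caput replicates 1, 2 and 3, at 226, 96.0 and 74.3 CPM in corpus replicates and at 170, 153 and 88.4 CPM in cauda replicates. The 3 segments overlapped throughout, and replicate 1 was the highest library in each. Segment means were 153 ± 70.0 CPM (SD, n = 3), 132 ± 82.2 CPM (SD, n = 3) and 137 ± 43.0 CPM (SD, n = 3). The spread between pools of a segment exceeded counting error: the exact 95% binomial interval was 220 to 238 CPM for caput replicate 1 and 84.4 to 97.5 CPM for caput replicate 2. Such intervals cover counting error only, since amplified copies of a molecule cannot be recognised.

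miR-183-3p was near the limit set for detection, a mean of 10 CPM in a segment. Its values were 14.9, 10.8 and 22.6 CPM in caput, 13.9, 19.97 and 11.6 CPM in corpus and 10.5, 7.32 and 6.78 CPM in cauda libraries. Every cauda library lay below every library of the other segments, but the lowest caput library, at 10.8 CPM, and the highest cauda library, at 10.5 CPM, were almost equal. Between 16 and 191 reads supported each value, and the exact 95% interval was 8.64 to 13.2 CPM for the former library and 6.50 to 16.0 CPM for the latter, which cannot be distinguished at this depth. The cauda mean, 8.20 ± 2.00 CPM (SD, n = 3), was below the detection limit. Caput and corpus means were 16.1 ± 6.003 CPM (SD, n = 3) and 15.2 ± 4.32 CPM (SD, n = 3).

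**Figure D2:**
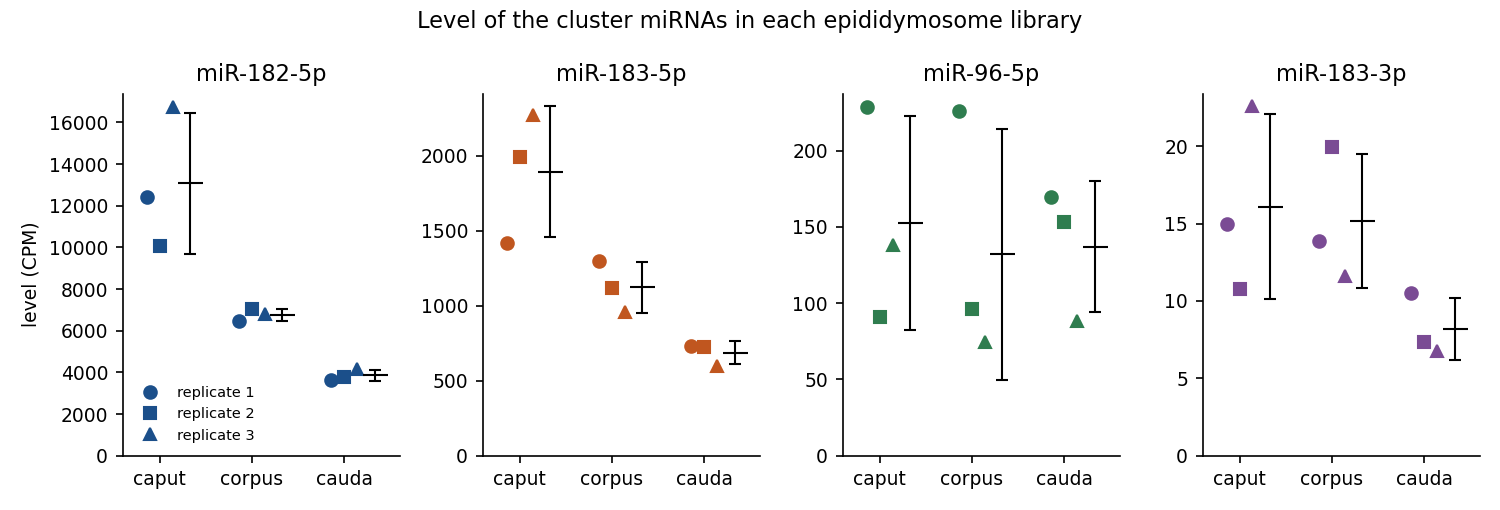
Level of each cluster miRNA in the 9 epididymosome libraries, with CPM on linear axes that start at 0 and differ between panels, where symbols are single libraries by replicate number and the black bar and whiskers are the mean and SD of 3 libraries. miR-182-5p descends from a mean of 13075 CPM in the caput to 3867 CPM in the cauda, miR-183-5p from 1892 to 685 CPM, and the segments of miR-96-5p overlap.

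Segments were compared by limma on log2(CPM + 1) in all 9 libraries, and a miRNA was considered differentially accumulated at an adjusted p-value under 0.05 (Benjamini-Hochberg over all miRNAs tested) with a fold change of at least 2. Between caput and cauda, the ends of the tract, 2 of the 4 cluster miRNAs were differentially accumulated, both lower in the cauda. The same held for 10.3% of the 349 miRNAs tested, while 49% were differentially accumulated in either direction, 135 higher and 36 lower in the cauda (84 and 73 with TMM normalization). miR-182-5p was 3.31-fold lower in cauda than in caput epididymosomes (log2 fold change -1.73, standard error 0.27, limma adjusted p = 0.00012). miR-183-5p was 2.72-fold lower (log2 fold change -1.44, standard error 0.34, limma adjusted p = 0.0024). limma-voom on recovered reads found the same number, 2 of 4, where 9.74% of miRNAs tested were lower. Both miRNAs passed in each of the 9 fits that omitted a library, in which the log2 fold change lay between -1.90 and -1.53 for miR-182-5p and between -1.64 and -1.30 for miR-183-5p.

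For miR-96-5p no difference between caput and cauda was detected, with a log2 fold change of -0.11 and a 95% interval of -1.16 to 0.94 that leaves room for a change of about the threshold in either direction (limma adjusted p = 0.87). miR-183-3p had a log2 fold change of -0.86 with an interval of -1.81 to 0.09 (limma adjusted p = 0.12). The libraries of caput and cauda did not overlap for 3 of the 4 cluster miRNAs, the exception being miR-96-5p, and a non-overlapping lower level in the cauda was found for 11.7% of miRNAs tested, a non-overlapping level in either direction for 54.2%.

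The median over all 349 miRNAs was 0.81 on the log2 scale, the tested miRNAs as a whole being higher in the cauda on the library size scale. All 4 cluster miRNAs lay below this median, and their differences from it were -2.54 for miR-182-5p, -2.25 for miR-183-5p, -0.92 for miR-96-5p and -1.67 for miR-183-3p. With TMM normalization the median moved to 0.07, and the fold by which the cauda was lower rose to 5.30 for miR-182-5p and 4.35 for miR-183-5p. miR-183-3p was then also differentially accumulated, 2.78-fold lower, as it was with median-of-ratios scaling at 2.85-fold, so that 3 of the 4 passed, beside 20.9% of all miRNAs tested that were lower in the cauda with TMM normalization. miR-96-5p did not pass under any scaling, and its log2 fold change with TMM normalization was -0.78. When libraries were scaled to the reads outside miR-10b-5p, miR-10a-5p and miR-143-3p, the log2 fold changes of miR-182-5p and miR-183-5p were -1.88 and -1.59.

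**Figure D3:**
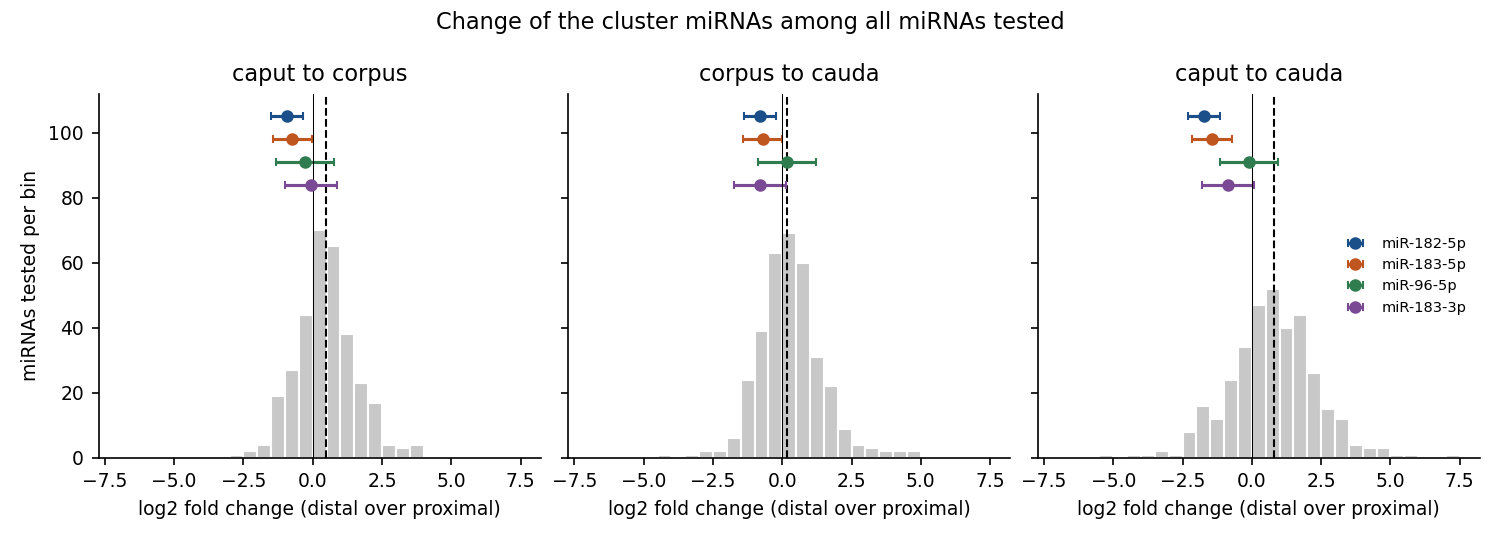
Log2 fold change of each cluster miRNA (coloured points with 95% intervals from limma) above the distribution of all miRNAs tested (grey bars, number of miRNAs per bin of the x axis, dashed lines at the median), positive values being higher in the more distal segment. In the caput to cauda panel miR-182-5p at -1.73 and miR-183-5p at -1.44 lie left of the median of 0.81.

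The descent of miR-182-5p and miR-183-5p was divided over both steps, and neither step alone met both criteria for any member. From caput to corpus 0 of the 4 cluster miRNAs were differentially accumulated by limma or by limma-voom on recovered reads, where 22.4% of 321 miRNAs tested were by limma. Those lower in the corpus were 3.43% of miRNAs tested by limma and 2.49% by limma-voom. By limma 61 were higher and 11 lower in the corpus, a split that turned to 42 and 49 with TMM normalization. The unadjusted limma p was 0.0038 for miR-182-5p, 0.044 for miR-183-5p, 0.59 for miR-96-5p and 0.90 for miR-183-3p. Unadjusted values were not counted over all miRNAs. miR-182-5p was 1.89-fold lower (log2 fold change -0.92, standard error 0.27), and although its limma adjusted p was 0.024 the change remained under 2-fold. That adjusted p ranged from 0.0042 to 0.092 over the limma fits that omitted 1 library. miR-183-5p had a log2 fold change of -0.74 (limma adjusted p = 0.12). The libraries of both miRNAs did not overlap between caput and corpus, as was found for 34.9% of miRNAs tested, with lower levels in the corpus for 5.61%.

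The scaling decided the calls at this first step, for which the median of all miRNAs was 0.47. With TMM normalization the log2 fold changes were -1.496 for miR-182-5p and -1.31 for miR-183-5p, both differentially accumulated, beside 15.3% of all miRNAs tested that were lower in the corpus. miR-182-5p also passed when caput replicate 2 was omitted, with a log2 fold change of -1.09. miR-96-5p and miR-183-3p had log2 fold changes of -0.27 and -0.06 from caput to corpus, within their standard errors of 0.50 and 0.45. The sign of either turned when single libraries were omitted. With TMM normalization these log2 fold changes were -0.85 and -0.60 (standard errors 0.48 and 0.33), and neither miRNA was differentially accumulated.

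Between corpus and cauda 0 of the 4 were differentially accumulated by limma or limma-voom, against 19% of the 342 miRNAs tested, including 4.97% that were lower in the cauda (4.09% by limma-voom). These were 48 higher and 17 lower miRNAs, and 56 and 34 with TMM normalization. The unadjusted limma p was 0.0090 for miR-182-5p, 0.052 for miR-183-5p, 0.74 for miR-96-5p and 0.092 for miR-183-3p, again without a count over all miRNAs. The log2 fold change of miR-182-5p was -0.81 (standard error 0.27, limma adjusted p = 0.046), again under 2-fold. This adjusted p was 0.099 by limma-voom and 0.055 with the replicate number as a block. It ranged from 0.0068 to 0.16 over the limma fits that omitted 1 library. miR-182-5p passed with median-of-ratios scaling at -1.01. With TMM normalization 0 of the 4 passed, where 10.2% of miRNAs tested passed and were lower in the cauda. The limma adjusted p was then 0.0042 for miR-182-5p, 0.075 for miR-183-5p, 0.068 for miR-183-3p and 0.92 for miR-96-5p. With library size scaling the log2 fold change of miR-183-5p was -0.71 (limma adjusted p = 0.16) and that of miR-183-3p -0.80 (limma adjusted p = 0.24). For miR-96-5p it was 0.17 (limma adjusted p = 0.85), beside a median of 0.18 for all miRNAs. Cauda libraries lay below all corpus libraries for miR-182-5p, miR-183-5p and miR-183-3p, and 16.1% of miRNAs tested had such a lower level, within 46.2% whose libraries did not overlap in either direction.

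Lower levels at both steps without overlap of libraries were found for 6 of the 358 miRNAs (1.68%), of which miR-182-5p and miR-183-5p are 2. The others, named after their values had been seen, were miR-146b-5p, miR-148a-5p, miR-204-5p and miR-375-3p. This number depended on the scaling and was 25 with TMM normalization, with 3 cluster miRNAs among them. The F test over the 3 segments, again in limma with Benjamini-Hochberg adjustment, gave an adjusted p of 0.00040 for miR-182-5p, 0.0074 for miR-183-5p, 0.20 for miR-183-3p and 0.88 for miR-96-5p, where 48.9% of miRNAs were under 0.05. For miR-183-3p the scaling changed this call, the F test giving an adjusted p of 0.0087 with TMM normalization and 0.0073 with median-of-ratios scaling, in a range of 0.0073 to 0.41 over all alternatives.

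Ratios between cluster miRNAs within a library do not move with the scaling and address whether the members kept their proportions along the tract. miR-182-5p exceeded miR-183-5p 5.05- to 8.78-fold in caput, 4.98- to 7.14-fold in corpus and 4.99- to 6.98-fold in cauda libraries, and these ranges overlapped. The log2 ratio of miR-182-5p to miR-183-5p was 2.78 ± 0.41 (SD, n = 3) in the caput and 2.50 ± 0.26 (SD, n = 3) in the cauda. Over the 3 segments a difference was not detected (two-sided exact permutation test of the F statistic, p = 0.50, adjusted p = 0.50 over 6 ratios).

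The excess of miR-182-5p over miR-96-5p was lower in every cauda than in every caput library, but the test over the 3 segments was not passed. miR-182-5p was 54.4- to 121-fold more abundant than miR-96-5p in caput, 28.5- to 91.8-fold in corpus and 21.5- to 47.1-fold in cauda libraries, so that caput and cauda did not overlap. The log2 ratio of miR-96-5p to miR-182-5p was -6.49 ± 0.63 (SD, n = 3) in the caput and -4.87 ± 0.60 (SD, n = 3) in the cauda, a difference of 1.62 (standard error 0.50). In the exact permutation test over the 3 segments this ratio had p = 0.096 and an adjusted p of 0.23 over 6 ratios, which did not pass. For miR-96-5p to miR-183-5p the caput to cauda difference was 1.34 (standard error 0.58), and caput replicate 1, at 0.161, reached into the cauda range of 0.148 to 0.233 (exact permutation test, p = 0.15, adjusted p = 0.23).

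Both strands of the miR-183 precursor were measured, which allows their balance to be followed. miR-183-5p was 94.8, 185 and 100.4 times as abundant as miR-183-3p in caput, 93.2, 55.9 and 82.2 times in corpus, and 69.6, 99.3 and 87.9 times in cauda libraries. The 5p strand thus prevailed in every library, and the segments overlapped apart from caput and corpus. The log2 ratio of 5p to 3p differed by -0.55 (standard error 0.38) between caput and cauda, and the limma F test over segments gave an adjusted p of 0.33 over the 79 precursors with both strands, of which 6.33% passed. By the exact permutation test the same ratio had p = 0.12 and an adjusted p of 0.23. Of the other 2 ratios, miR-183-3p to miR-182-5p had p = 0.046 and miR-183-3p to miR-96-5p p = 0.24 by the exact permutation test, with adjusted p-values of 0.23 and 0.29. The former ratio was 0.0011 to 0.0014 in caput, 0.0017 to 0.0028 in corpus and 0.0016 to 0.0029 in cauda libraries. Caput thus overlapped neither other segment, at the low read numbers of miR-183-3p. Its caput to cauda difference was 0.83 on the log2 scale (standard error 0.25). The smallest p this design can give is 0.0036, and 0 of the 6 ratios passed after adjustment.

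**Figure D4:**
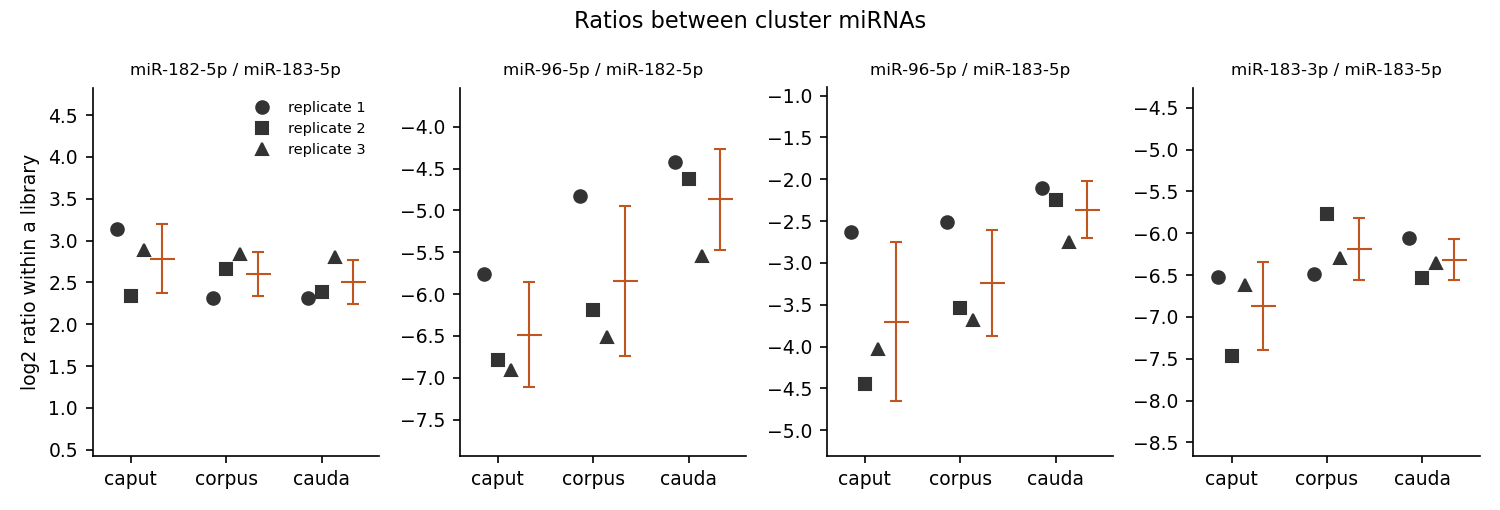
Log2 ratio of pairs of cluster miRNAs within each library, where symbols are libraries by replicate number and orange bars and whiskers are the mean and SD of 3 libraries. The ratio of miR-182-5p to miR-183-5p stays between means of 2.78 and 2.50, and that of miR-96-5p to miR-182-5p is higher in all cauda than in all caput libraries.

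Pearson's correlation of log2(CPM + 1) over the 9 libraries, which fall into 3 segments and share their scaling, was 0.92 between miR-182-5p and miR-183-5p, 0.08 between miR-182-5p and miR-96-5p and 0.13 between miR-183-5p and miR-96-5p. These values are descriptive. Among the 357 other miRNAs, miR-182-5p was the 2nd most alike to miR-183-5p, after miR-146b-5p at 0.93, and miR-183-5p stood at rank 7 for miR-182-5p, led by miR-148a-5p at 0.97. miR-96-5p was most like miR-100-5p at 0.88. Averaged over the 3 guide strands, the highest correlations belonged to miR-467a-5p and miR-467b-5p, which have identical values and share 0.71, followed by miR-138-5p at 0.71, miR-669c-5p at 0.69 and miR-211-5p at 0.66. The correlation of these 5 with miR-96-5p alone was between 0.25 and 0.46.

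The spread within the cluster was set beside that of other hairpins that lie together. The range of caput to cauda log2 fold changes over the 3 guide strands of the miR-183 cluster was 1.62, from -1.73 to -0.11. Of 23 groups of hairpins within 10 kb on the same strand, compared by their most abundant single-locus strand, this range ranked 7 from the largest, and the median range was 1.30. Among the 11 groups of 3 or more hairpins it ranked 6. These groups differ in size and level, and no test was made.

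A pair of lists of miRNAs were set beside the cluster for context. Of 8 miRNAs linked to sensory organs and neuroendocrine cells, 4 were measured, and all 4 were differentially accumulated and lower in the cauda under all 4 scalings. Of all miRNAs tested, 10.3% by limma and 20.9% with TMM normalization were lower in the cauda by the same criteria. This list was chosen with earlier results of these data known, so the count is a description only. The median of the 4 was -3.61 on the log2 scale. miR-204-5p and its relative miR-211-5p, known from retinal pigment epithelium, were 34.6-fold and 8.15-fold lower (limma adjusted p = 1.0e-07 and 0.00013), miR-375-3p, known from pancreatic islets, 18.2-fold (limma adjusted p = 2.1e-06), and miR-9-5p, known from neural progenitors, 8.02-fold (limma adjusted p = 0.00011). The decline of miR-182-5p was in the same direction and smaller, and a difference in size was not tested. Of 7 epithelial miRNAs, comprising the miR-200 family with miR-205-5p and miR-203-3p, 1 was higher in the cauda, miR-141-3p at 2.24-fold (limma adjusted p = 0.00064), and 0 were lower by limma with library size scaling, while 2 were lower and 0 higher with TMM normalization. The median of the epithelial list was 0.24 with library size scaling and turned to -0.44 with TMM normalization.

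Markers of other cell types moved over the same segments. Summed over 4 smooth muscle miRNAs the level was 50115 to 88995 CPM in caput and 291676 to 354786 CPM in cauda libraries, and all 4 rose. The corresponding ranges were 52.5 to 184 and 1249 to 3706 CPM for 3 measured striated muscle miRNAs, of which 3 rose, 122 to 468 and 1595 to 2208 CPM for 3 of red blood cells, of which 3 rose, 231 to 530 and 392 to 1601 CPM for 5 of leukocytes, of which 3 rose, and 303 to 1032 and 2142 to 2554 CPM for 12 of germ cells and sperm, of which 12 rose. With TMM normalization 2, 3, 1, 3 and 8 of these rose. A rise or fall here means differentially accumulated between caput and cauda. Of all miRNAs tested, 135 of 349 were so called higher in the cauda by limma with library size scaling, and 84 of 350 with TMM normalization. Of 3 measured neuronal miRNAs, 1 rose and 1 fell, miR-9-5p, which is also in the sensory and neuroendocrine list. Summed, the neuronal miRNAs had 181 to 383 CPM in caput and 164 to 199.9 CPM in cauda libraries. A further 5 epithelial markers are also in the list of 7 epithelial miRNAs, and of these 1 rose, miR-141-3p. With library size scaling the 5 totalled 20990 to 31796 CPM in caput and 44552 to 61007 CPM in cauda libraries. This separation depended on the scaling. With TMM normalization the totals overlapped, at 26886 to 43930 in caput and 40249 to 47400 in cauda libraries, and 0 of the 5 rose and 1 fell. The part of these changes in the lower CPM of miR-182-5p and miR-183-5p was not tested beyond the scalings given above.

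**Figure D5:**
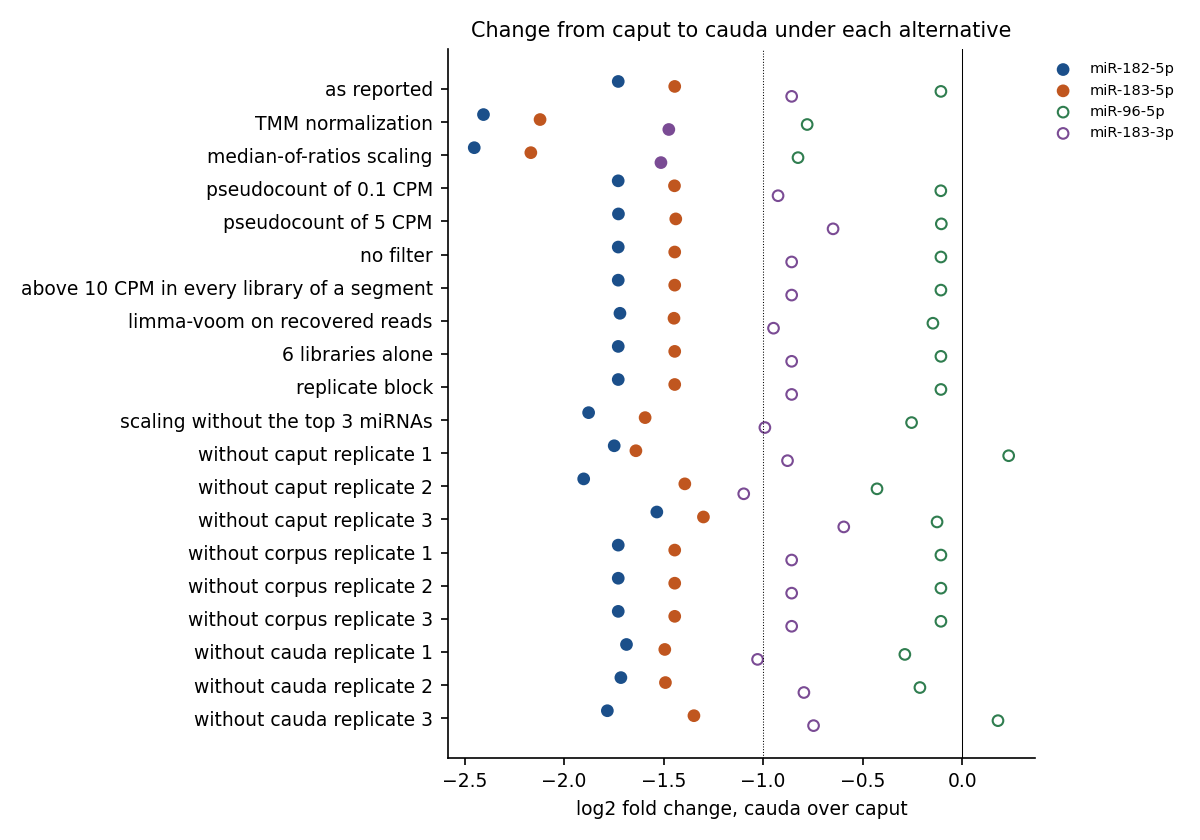
Log2 fold change from caput to cauda of each cluster miRNA (x axis) as reported and under every alternative in the processing (y axis). In the plot of filled (differentially accumulated) and open symbols, with a dotted line at a 2-fold fall and a solid line at no change, miR-182-5p, between -2.45 and -1.53, and miR-183-5p, between -2.17 and -1.30, are filled throughout, and miR-96-5p is open throughout.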

How the data were processed

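Total RNA of purified epididymosomes was pooled from several mice per library and sequenced by the authors on an Illumina HiSeq-2000 (TruSeq small RNA). They removed contaminants with cutadapt and bowtie, used the miRDeep2 quantifier for read counts of known miRNAs and scaled by library size, so that the deposited values are CPM (358 miRNAs, 9 libraries). The submitters' notes name CASAVA 1.8.2 and Bowtie 1.1.1. The genome build is not given in the sources used here. The authors name edgeR and limma, and called differences at 2-fold or more and a false discovery rate under 0.05.

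Each library's total was worked out by giving its lowest nonzero value the fewest reads that made all values whole within 0.02. The largest distance from a whole read was then 0.00052. limma (version 3.58, R 4.3) was fitted with lmFit and a trended eBayes to log2(CPM + 1), with segment as the only factor. Adjustment covered miRNAs whose mean reached 10 CPM in a compared segment. Fold changes on this scale understate those of low miRNAs. Arm ratios (pseudocount 0.5 CPM, both strands at a mean of at least 1 CPM) were fitted with limma, and ratios between members by exact permutation over 280 divisions of the libraries. TMM and median-of-ratios factors were computed in Python 3.11 with numpy 2.4 and pandas 2.3, and matplotlib 3.10 drew the plots. The fits were tested on simulated data. All miRNAs under the 3 names were described. Outside the cluster, miRNAs were named from the 5 most correlated, shared seeds, fixed lists and neighbouring hairpins. The members, lists and rules were chosen with earlier results of these data known. Sequences and coordinates are from RefSeq, matched by name.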

Additional observations from a re-analysis of the deposited data

How the results depend on the processing

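Of 378 values of single miRNAs or ratios recomputed under alternatives, 357 kept their side of the threshold and any direction, and of 57 counts of differentially accumulated miRNAs 52 were within 1.5 times the reported count, although the split into higher and lower miRNAs moved with the scaling. TMM normalization, median-of-ratios scaling and scaling without the top 3 miRNAs (the last chosen after seeing the data) brought the caput to corpus log2 fold changes past the threshold, at -1.496, -1.44 and -1.21 for miR-182-5p and -1.31, -1.26 and -1.03 for miR-183-5p. Median-of-ratios scaling did so for miR-182-5p from corpus to cauda (-1.01), where it turned miR-96-5p to -0.032. With TMM and median-of-ratios scaling miR-183-3p passed from caput to cauda (-1.47 and -1.51) and in the F test (limma adjusted p = 0.0087 and 0.0073, in a range of 0.0073 to 0.41 over all alternatives). The cause was not tested.

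With 1 library left out, the number of differentially accumulated miRNAs was 46 (without corpus replicate 1) to 102 from caput to corpus, 32 (without corpus replicate 2) to 83 from corpus to cauda, where it was 41, 38 and 39 without corpus replicate 1, cauda replicate 1 and cauda replicate 2, and 132 to 202 from caput to cauda. Log2 fold changes from caput to corpus ranged from -1.09 (without caput replicate 2, past the threshold) to -0.73 for miR-182-5p, from -0.75 to 0.066 for miR-96-5p and from -0.30 to 0.21 for miR-183-3p. From corpus to cauda miR-96-5p ranged from -0.16 to 0.64, and from caput to cauda from -0.43 to 0.23. miR-96-5p turned sign from caput to corpus without caput replicate 1 (0.066) or corpus replicate 3 (0.052), from corpus to cauda without corpus replicate 3 (-0.16) or cauda replicate 1 (-0.014), and from caput to cauda without caput replicate 1 (0.23) or cauda replicate 3 (0.18). miR-183-3p did so from caput to corpus without caput replicate 3 (0.21) or corpus replicate 3 (0.11).

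Replicate numbers are shared between segments, but correlations of same-numbered deviations ran from -0.21 to 0.41 and exceeded 0.1 in 6 of 9 pairs. Those of different-numbered libraries ran from -0.45 to 0.18 and exceeded 0.1 in 4 of 18, and 8 of 9 libraries correlated best with their own number, a hint of pairing from the data. Because the labels name no shared animals or batch and not every same-numbered pair exceeded 0.1, the reported tests were left unpaired. With the replicate number as a block the caput to cauda values were -1.73 and -1.44 for miR-182-5p and miR-183-5p, and the block changed no call of a cluster miRNA. For the ratios a permutation within replicate numbers, added after seeing the data, gave p = 0.028 for miR-96-5p to miR-182-5p and to miR-183-5p (difference 1.62 and 1.34), the smallest this exact test can give, and both ratios were higher at each step within all 3 replicate numbers. The adjusted value of 0.083 over 6 ratios says little, since a test with this smallest p could hardly pass after adjustment. The 2 alternatives with edgeR were not run, because the libraries hold only 10 to 114 low values each, near the smallest value, too few in most to accept the recovered reads as counts from these alone. The read numbers, their intervals and limma-voom rest on this recovery. Depth limits miR-183-3p most, at 16 to 191 reads.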
